A study of Mus musculus with 7 samples.

Results

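Laminin chain genes were read on arrays of palatal shelf RNA from mouse embryos of stage E13.75, before the 2 shelves join into the secondary palate. The chains were taken by gene symbol from the platform annotation. Of 9 chains named (Lama1, Lama2, Lama3, Lama4, Lama5, Lamb1, Lamb2, Lamb3 and Lamc1), 7 had a probe among the 16565 genes of the array, and Lama3 and Lama5 were not analysed here. The tested embryos were 4 of genotype Adamts9+/-:bt/bt, which carry 1 functional copy of Adamts9 and the belted allele on both copies of Adamts20. The controls were 3 wild-type embryos of the same age, and both groups are labelled as strain C57BL/6. Both genes encode secreted proteases whose substrates include the matrix proteoglycan versican, and the study concerns versican cleavage during palate closure. Each embryo gave 1 array of whole shelf RNA, the genotype is that of the whole embryo, and whether the groups shared litters is not given in the sources used here.

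Laminins are cross-shaped secreted trimers of an alpha, a beta and a gamma chain, and they polymerise on cell surfaces to start a basement membrane. Collagen IV forms a second network beside them, nidogens and perlecan link the networks, and integrins and dystroglycan bind the globular end of the alpha chain. In the palatal shelf, basement membrane lies under the oral epithelium and around vessels, muscle and nerves. Chain genes differ in where they are used, so a trimer's makeup varies between these sites.

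Values are the deposited log2 values, normalized between arrays, and a difference is the Adamts9+/-:bt/bt mean minus the wild-type mean. A gene was called detected when its mean lay above the 40th percentile of all 18116 distinct features, a limit of 5.86. Detected features numbered 10869, and 6 of the 7 measured laminin genes were among them. Group values are means ± SD over 4 mutant and 3 wild-type arrays. Precision is limited by how few arrays there were. The upper quartile of raw intensity ran from 172 to 200 in the mutant arrays, against 209 to 248 in the wild-type arrays. Correlations across detected features ran from 0.992 to 0.994 among mutant arrays, from 0.982 to 0.993 among wild-type arrays, and a mutant array set against a wild-type one gave 0.947 to 0.977. Of the 2 genes in the genotype, Adamts9 was not analysed here. Adamts20 lay below the limit, at 5.74 ± 0.05 in the mutants (SD, n = 4) and 5.72 ± 0.08 in wild type (SD, n = 3). It therefore gave no check of the genotypes.

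Lamb2, Lamb3 and Lamc1 were lower in the Adamts9+/-:bt/bt shelves, and Lama1, Lama2 and Lamb1 did not pass the test. By limma, with p-values adjusted by Benjamini-Hochberg across the 10869 detected features, 3 of 6 detected chains fell, 0 rose and 3 did not pass. Over all features 36.6% were called, 19.8% as lower and 16.8% as higher, so calls in either direction were common in these arrays. The split was 1829 higher and 2148 lower, and with median centring of the intensities it was 826 higher and 3931 lower. At an unadjusted p of 0.05 the counts were 0 higher and 3 lower, and by exact permutation 0 higher and 2 lower. For such counts, here and in the lists below, the share over all features was not computed. The median difference of the detected chains was -0.31, against -0.0035 over all detected features. Mutant values lay wholly below wild-type values for 3 of the 6 detected chains, as they did for 22.9% of all detected features.

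**Figure D1:**
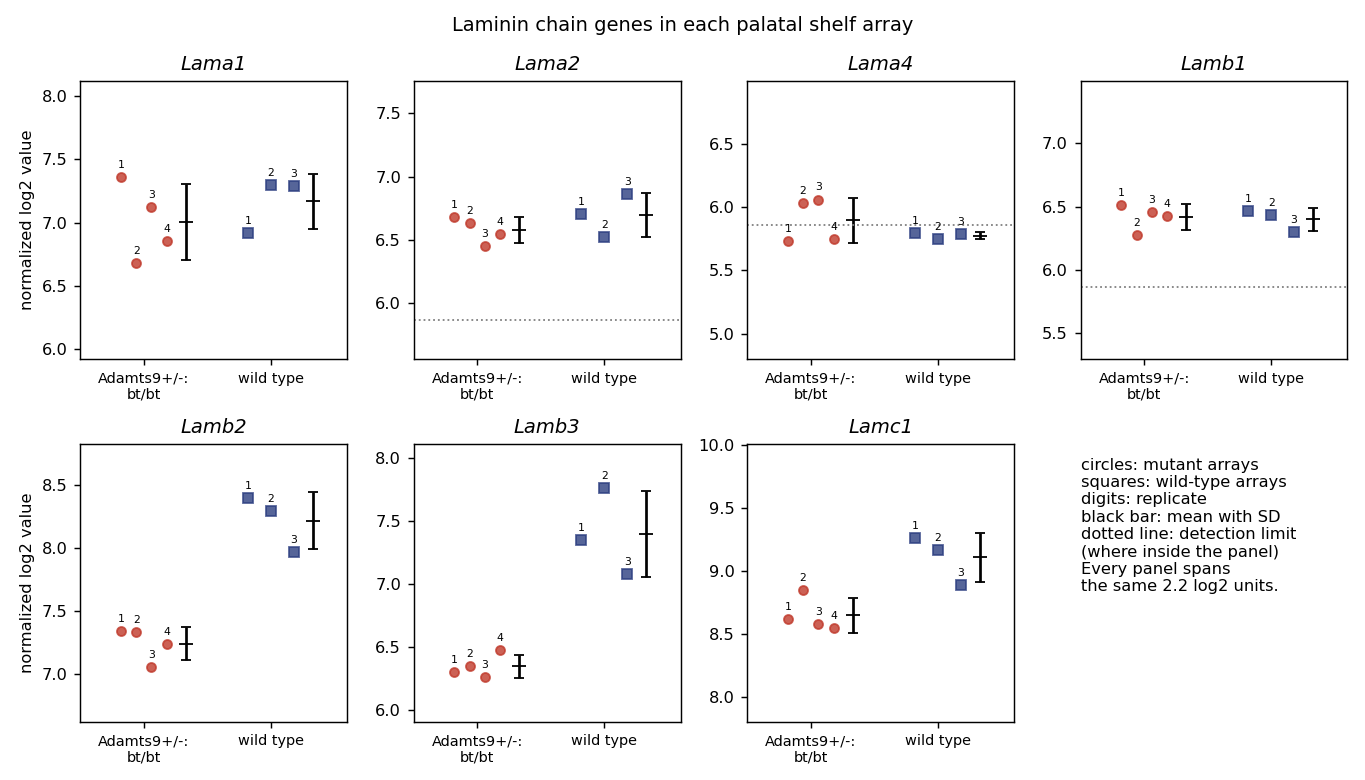
Normalized log2 value (vertical axis) of 7 laminin genes in each array, with Adamts9+/-:bt/bt arrays as circles, wild-type arrays as squares, the replicate number beside each point and black bars for the mean with SD. Mutant points lie below all wild-type points for Lamb2, Lamb3 and Lamc1, and the groups overlap for Lama1, Lama2, Lama4 and Lamb1.

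Among the beta chain genes, Lamb2 and Lamb3 fell and Lamb1 did not pass the test. Lamb2 encodes a beta chain known from the neuromuscular junction, the kidney glomerulus and vessel walls. It read 7.34, 7.33, 7.06 and 7.24 in the mutant arrays, against 8.39, 8.29 and 7.96 in the wild-type arrays. All 4 mutant values lay below the lowest wild-type value, that of replicate 3. The mutant mean was 7.24 ± 0.13 (SD, n = 4) and the wild-type mean 8.22 ± 0.22 (SD, n = 3). The difference was -0.97, or 1.96-fold lower (SE 0.11, 95% interval -1.23 to -0.72, limma adjusted p = 0.000304). The exact two-sided permutation p was 0.0286, the smallest that the 35 splits of 7 arrays can give. Raw intensities, before any normalization, were 167, 153, 126 and 135 in the mutants and 431, 393 and 268 in wild type. They did not overlap either, but they carry the lower upper quartile of the mutant arrays. Of all detected features, 1.32% fell by as much or more.

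Lamb3 encodes the beta chain of the epithelial laminin that anchors basal keratinocytes through hemidesmosomes. Its values were 6.30, 6.35, 6.26 and 6.48 in the mutant arrays, against 7.35, 7.76 and 7.08 in the wild-type arrays. The mutant arrays were close together, and the wild-type arrays spread over a wider range, with replicate 2 highest and replicate 3 lowest. Means were 6.35 ± 0.09 in the mutants (SD, n = 4) and 7.40 ± 0.34 in wild type (SD, n = 3). The difference was -1.05, or 2.07-fold lower (SE 0.14, 95% interval -1.36 to -0.73, limma adjusted p = 0.000595, exact permutation p = 0.0286). Raw intensity was 82.0, 81.5, 75.2 and 83.2 in the mutants, against 202, 268 and 142 in wild type. The mutant values stood near the dim end of the array, where the size of a fall may be understated. A fall of this size or more was seen in 0.929% of detected features.

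Lamb1 encodes the beta chain found in most embryonic basement membranes. It read 6.51, 6.28, 6.46 and 6.42 in the mutants and 6.47, 6.43 and 6.30 in wild type. The groups overlapped throughout, and the difference was 0.017 (SE 0.08, 95% interval -0.15 to 0.19, limma adjusted p = 0.891, exact permutation p = 0.8). Its sign turned under some settings, including median centring (-0.054). A fall as large as that of Lamb2 or Lamb3 would have taken Lamb1, at 6.28 to 6.51, below the limit of 5.86. Its interval reaches a fall of 0.15. Raw intensity was dim in both groups, at 77.8 to 94.9 in the mutants and 79.3 to 101 in wild type.

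The beta chain genes were also compared as differences within each array, where a shift common to all probes of an array cancels. Because Lamb1 itself differed by only 0.017, its pairs largely restate the falls of Lamb2 and Lamb3. Lamb2 minus Lamb1 was 0.83, 1.06, 0.60 and 0.82 in the mutants, against 1.92, 1.86 and 1.67 in wild type. The group difference was -0.99 (exact permutation p = 0.0286, adjusted p = 0.0429 over 3 pairs). Lamb3 minus Lamb1 was -0.21, 0.07, -0.19 and 0.05 in the mutants, against 0.88, 1.32 and 0.78 in wild type. The group difference was -1.06 with the same exact permutation p and the same adjusted value. Both pairs thus separated the groups without overlap. Lamb2 minus Lamb3 overlapped, at 0.76 to 1.04 in the mutants and 0.54 to 1.04 in wild type (difference 0.07, exact permutation p = 0.714). Against wild-type replicate 3 alone, the first 2 group differences were -0.84 and -0.85, where 5 arrays allow no p below 0.2.

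**Figure D2:**
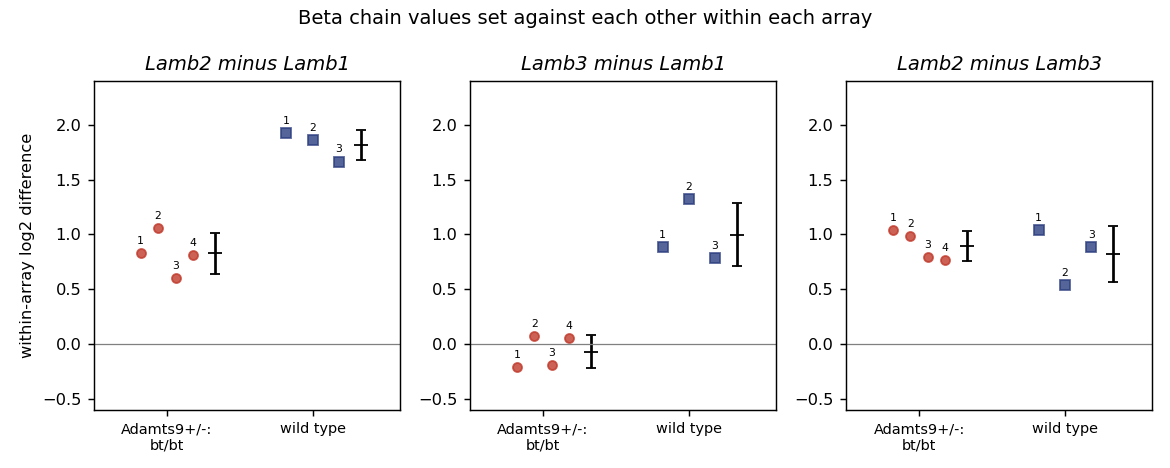
Difference in log2 value between 2 beta chain genes within each array (vertical axis), with Adamts9+/-:bt/bt arrays as circles, wild-type arrays as squares and black bars for the mean with SD. Lamb2 and Lamb3 each stand lower against Lamb1 in all 4 mutant arrays than in the 3 wild-type arrays, and the plot of Lamb2 against Lamb3 overlaps.

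Upstream sequence of the beta chain genes is shown because 2 of them fell and the other did not pass. RefSeq promoter windows on GRCm38.p6 were matched by symbol, with windows on 1 chromosome left out, which gave 5 of the 9 named chains. The 250 bases before the annotated start are given 5′ to 3′ on the plus strand. Lamb2 lies at chr9:108479612-108479861, Lamb3 at chr1:193301744-193301993 for its upstream start, and Lamb1 at chr12:31265043-31265292. Capitals mark matches on either strand to the GC box GGGCGG, the TATA box TATAAA, the AP-1 site TGANTCA or the E box CAGGTG.
Lamb2: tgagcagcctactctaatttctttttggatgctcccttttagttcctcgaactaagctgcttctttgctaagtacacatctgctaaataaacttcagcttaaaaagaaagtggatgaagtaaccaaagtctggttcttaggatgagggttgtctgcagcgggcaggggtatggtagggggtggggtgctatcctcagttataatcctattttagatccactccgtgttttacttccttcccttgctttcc
Lamb3: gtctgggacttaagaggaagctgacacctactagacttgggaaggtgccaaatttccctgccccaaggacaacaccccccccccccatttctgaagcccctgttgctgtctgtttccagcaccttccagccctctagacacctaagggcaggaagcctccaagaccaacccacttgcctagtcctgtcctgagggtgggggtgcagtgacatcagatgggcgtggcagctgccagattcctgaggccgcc
Lamb1: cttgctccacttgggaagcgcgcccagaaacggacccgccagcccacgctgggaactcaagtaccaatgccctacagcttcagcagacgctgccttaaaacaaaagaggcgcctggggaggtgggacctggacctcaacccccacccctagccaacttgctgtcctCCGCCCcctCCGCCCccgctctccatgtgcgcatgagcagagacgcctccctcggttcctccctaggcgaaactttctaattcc
The Lamb1 window held 2 GC boxes, both on the minus strand, starting 84 and 75 bases before the start of the gene. The Lamb2 and Lamb3 windows shown held no match to any of the 4 motifs. A second Lamb3 window, at chr1:193301993-193302242, held 1 E box, which starts 6 bases before its own start. Of 32851 promoter windows of this length, 32.7% held a GC box, 12.4% a TATA box, 6.75% an AP-1 site and 17.2% an E box. GC content was 43.6% for Lamb2, 58.8% for Lamb3 and 62.0% for Lamb1, against a median of 52.4% over all windows. A match is a description of these letters and no evidence of binding.

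Lamc1 encodes the gamma chain shared by most laminins, and mouse embryos without it form no basement membranes. It read 8.62, 8.85, 8.58 and 8.55 in the mutants, against 9.26, 9.17 and 8.89 in wild type. The groups did not overlap, but mutant replicate 2 and wild-type replicate 3 nearly met. Means were 8.65 ± 0.14 in the mutants (SD, n = 4) and 9.11 ± 0.19 in wild type (SD, n = 3). The difference was -0.46, or 1.37-fold lower (SE 0.11, 95% interval -0.70 to -0.22, limma adjusted p = 0.00909). The exact permutation p was 0.0571, and 8.68% of detected features fell by as much or more. Against wild-type replicate 3 alone the difference was -0.24 (adjusted p = 0.241 by limma, with the spread taken from the mutant arrays alone), so it did not pass there. Over the 7 fits that each left out 1 array, the adjusted p by limma ran from 0.0015 to 0.0414.

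Wild-type replicate 3 was the lowest wild-type array for each of the 3 genes that fell. For Lamb2 and Lamb3 it still lay above every mutant array. With 1 array in the wild-type arm, the spread comes from the mutant arrays alone, and the wild-type array is assumed to vary like them. Against this array alone, Lamb2 differed by -0.72 (limma adjusted p = 0.0074) and Lamb3 by -0.73 (limma adjusted p = 0.00399). The plot of settings shows that these were the smallest falls of both genes.

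**Figure D3:**
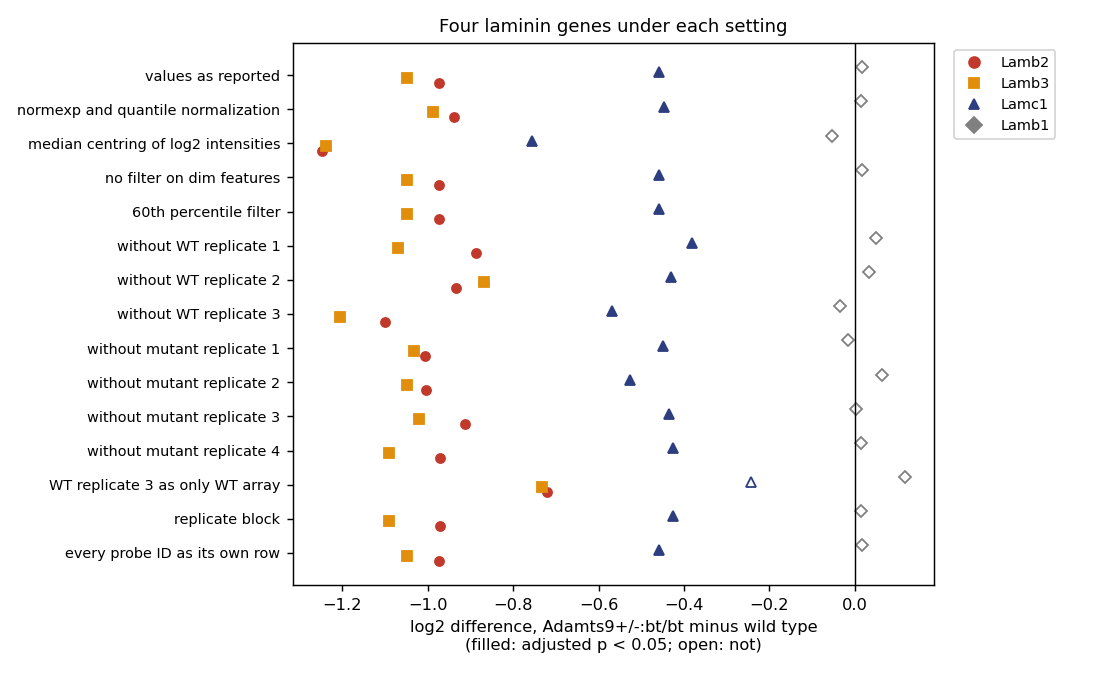
Log2 difference, Adamts9+/-:bt/bt minus wild type (horizontal axis), of Lamb2, Lamb3, Lamc1 and Lamb1 under each processing setting or left-out array (vertical axis), with filled symbols where the limma adjusted p was under 0.05. Lamb2 and Lamb3 are filled in each of the 15 settings, Lamc1 is open against wild-type replicate 3 alone, and Lamb1 stays near 0.

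The alpha chain genes did not pass the test. Lama1, whose chain is typical of early embryonic epithelia, read 7.36, 6.68, 7.13 and 6.85 in the mutants, against 6.92, 7.29 and 7.29 in wild type. Mutant replicate 1 was the highest array and mutant replicate 2 the lowest, so the spread within the mutants exceeded the group difference of -0.16 (SE 0.16, 95% interval -0.53 to 0.21, limma adjusted p = 0.475). Lama2 encodes the chain of muscle and Schwann cell basement membranes, whose loss causes muscular dystrophy. It read 6.68, 6.63, 6.45 and 6.55 in the mutants and 6.70, 6.52 and 6.86 in wild type. These overlapped, with a difference of -0.12 (SE 0.09, 95% interval -0.33 to 0.09, limma adjusted p = 0.353). Lama4, known from endothelial basement membrane, lay at the limit of detection. It read 5.74, 6.04, 6.06 and 5.75 in the mutants, against 5.80, 5.75 and 5.79 in wild type. Mutant replicates 2 and 3 were above 5.86, and the other arrays were not. When dim features were tested as well, Lama4 differed by 0.12 (SE 0.09, limma adjusted p = 0.449). None of the 3 alpha chain genes differed beyond the replicate spread by these tests, and the interval of Lama1 reaches a fall of 0.53.

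Genes whose profile over the 7 arrays lay closest to each chain that fell were found by Euclidean distance, after each gene's wild-type mean was set to 0. Among 10223 features of other single genes, Tgfb3, a ligand needed for shelf fusion, lay nearest to Lamb2, at a distance of 0.10, with a difference of its own of -0.99 (SE 0.10). Men1, which encodes menin, followed at 0.14 and Inpp5a, an inositol phosphatase, at 0.15. Srrt (0.19), Gtf3c1 (0.21) and the linker histone gene H1f10 (0.23) lay nearest to Lamb3. Ankfy1 (0.11), Pwwp2b (0.13) and Cog1 (0.13) lay nearest to Lamc1. The distance is in log2 units and mainly reflects the size of the group difference, which many features share.

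Basement membrane partners of laminins fell or did not pass. Of 23 genes listed, 21 had a probe and 17 were detected, and of these 9 fell, 0 rose and 8 did not pass by limma, beside 19.8% lower and 16.8% higher over all features. The median difference was -0.32, against -0.0035 over all detected features. At an unadjusted p of 0.05 the counts were 0 higher and 10 lower, and by exact permutation 0 higher and 6 lower, with no share over all features computed at these thresholds. Col4a2 and Col4a1 encode the collagen IV chains of nearly all basement membranes. Col4a2 read 9.80, 9.75, 9.54 and 9.55 in the mutants, against 11.02, 11.06 and 10.66 in wild type (difference -1.25, SE 0.11, limma adjusted p = 0.000112). Col4a1 read 10.42, 10.41, 10.31 and 10.25 in the mutants, against 11.16, 11.32 and 10.82 in wild type (difference -0.75, SE 0.11, limma adjusted p = 0.00104). In both genes the groups were apart and wild-type replicate 3 was again the lowest wild-type array.

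Nid2 encodes a nidogen, which binds the laminin gamma chain. It read 8.23, 8.42, 7.83 and 8.21 in the mutants, against 9.36, 9.001 and 8.91 in wild type (difference -0.92, SE 0.15, limma adjusted p = 0.00161). Fras1, which encodes a protein under embryonic epithelia, differed by -0.57 (SE 0.06), Col15a1 by -0.61 (SE 0.17) and Col4a5 by -0.32 (SE 0.07). The proteoglycan genes Hspg2 and Agrn did not pass. Hspg2, which encodes perlecan, differed by 0.0029 (SE 0.09, 95% interval -0.21 to 0.21) and Agrn, which encodes agrin, by -0.06 (SE 0.07, 95% interval -0.21 to 0.09). The number of partners called was 5 without wild-type replicate 1 and 5 without wild-type replicate 2. Calls over all features dropped as well, to 2924 and 2958 of 10869, against 3977 with all arrays. Of the partners named, Col15a1 lost its call without wild-type replicate 1 (-0.51), wild-type replicate 2 (-0.46) or mutant replicate 3 (-0.55).

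**Figure D4:**
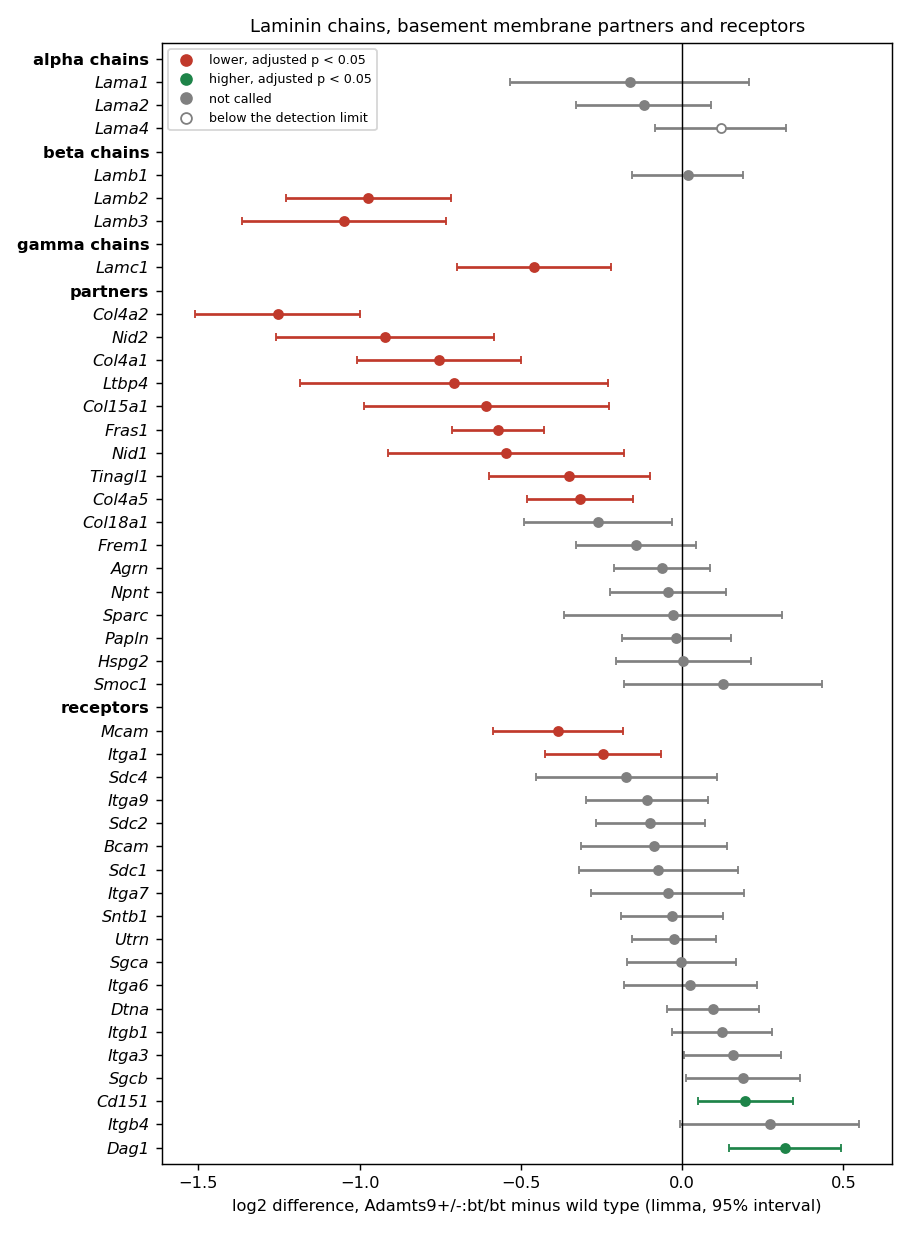
Log2 difference, Adamts9+/-:bt/bt minus wild type, with its 95% limma interval (horizontal axis) for laminin chains, detected basement membrane partners and detected receptors (vertical axis), coloured by the call, with Lama4 taken from the fit without a filter. Chains and partners that were called all lie left of 0, and called receptors lie 2 on each side in these values (0 and 4 with median centring).

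Laminin receptors moved in both directions or did not pass. All 24 genes listed had a probe and 19 were detected, of which 2 rose, 2 fell and 15 did not pass, beside 36.6% called over all features; this difference in share was not tested. With median centring 0 were higher and 4 lower. The median difference was -0.03. Dag1 encodes dystroglycan, which binds laminin alpha chains outside integrins. It read 9.44, 9.66, 9.40 and 9.54 in the mutants, against 9.15, 9.16 and 9.27 in wild type (difference 0.32, SE 0.08, limma adjusted p = 0.0111). Cd151, a tetraspanin that partners laminin-binding integrins, rose by 0.20 (SE 0.07, limma adjusted p = 0.0427), but turned to -0.11 with median centring. Dag1 differed by 0.02 with that scaling, where neither was called and the median of all features was -0.14. Mcam, a cell adhesion molecule of vessels that binds the Lama4 chain, fell by 0.38 (SE 0.09, limma adjusted p = 0.00948). The integrin gene Itga1 fell by 0.25 (SE 0.08, limma adjusted p = 0.0389). Its mutant mean of 5.83 lay below the detection limit and its wild-type mean of 6.07 above it. Itga1 was thus detected by its mean over all arrays, and its fall was read at the limit.

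Subunits of the main laminin-binding integrins did not pass. Itga6 differed by 0.02 (SE 0.09), Itga3 by 0.16 (SE 0.07), Itgb1 by 0.12 (SE 0.07) and Itgb4, whose product joins the Lamb3 trimer to hemidesmosomes, by 0.27 (SE 0.12). The number of receptors called was 2 without wild-type replicate 1 or without mutant replicate 2, beside 2924 and 3495 of 10869 over all features. Against wild-type replicate 3 alone it was 0 by limma, and 3 had an unadjusted p under 0.05. With the replicate number as a block it was 1, beside 2840 over all features. Cd151 kept its call only without mutant replicate 3 among the 7 fits that left out 1 array, and Itga1 only without wild-type replicate 3 or mutant replicate 1.

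The third list held other chains, netrins and enzymes. Of 20 genes, 14 had a probe and 8 were detected, and 2 fell, 0 rose and 6 did not pass by limma, beside 19.8% lower and 16.8% higher over all features. At an unadjusted p of 0.05 the counts were 1 higher and 2 lower, and by exact permutation 0 higher and 2 lower, again with no share over all features computed. Bmp1, a protease that trims laminin and procollagen chains, read 9.30, 9.15, 9.18 and 9.20 in the mutants, against 9.46, 9.71 and 9.44 in wild type (difference -0.33, SE 0.08, limma adjusted p = 0.0113). Pomgnt1, an enzyme that glycosylates dystroglycan, differed by -0.40 (SE 0.10, limma adjusted p = 0.0154). Pomgnt1 lost its call without wild-type replicate 1 (-0.37) or wild-type replicate 2 (-0.31). Lamc3, a further gamma chain, stood at 5.85 ± 0.15 in the mutants (SD, n = 4) and 5.91 ± 0.15 in wild type (SD, n = 3), next to the limit, and differed by -0.06 (SE 0.10). The count called was 1 without wild-type replicate 1 and 1 without wild-type replicate 2, beside 2924 and 2958 of 10869 over all features. With the replicate number as a block it was 1, beside 2840 over all features. It was 0 by limma against wild-type replicate 3 alone, where 2 had an unadjusted p under 0.05.

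Markers of the tissue and of cells that lie on basement membrane were read in the same arrays. In whole tissue, fewer cells of a type and less RNA per cell cannot be told apart. All 10 palatal mesenchyme markers were detected, and 4 (Twist1, Barx1, Msx1 and Osr2) fell, beside 19.8% lower over all features. The other 6 did not pass, and the median difference of the 10 was -0.20. Summed linear values of that list ran from 6696 to 8120 in the mutants and from 11329 to 13171 in wild type. Of 13 detected neuron markers 12 rose, beside 16.8% higher over all features, and Snap25 and Nefl were below the limit. Sums of the neuron list were 10613 to 14715 in the mutants and 1881 to 3789 in wild type. The part of these shifts in the laminin differences was not tested.

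Epithelial markers, which bear on Lamb3, had sums that overlapped, at 6130 to 9225 in the mutants and 6609 to 8743 in wild type. Of 13 detected, Cdh1 and Esrp1 rose, Grhl2 fell and 10 did not pass, beside 36.6% called over all features. Perp was below the limit. The basal keratin genes Krt14 (difference 0.11, SE 0.23) and Krt5 (-0.05, SE 0.32) varied widely within both groups. The part of epithelial content in the Lamb3 difference was not tested. Esrp1 lost its call without wild-type replicate 1 or 3 or mutant replicate 2, 3 or 4 (0.28 to 0.36), and Grhl2 without wild-type replicate 2 (-0.21) or mutant replicate 2 or 3 (-0.31 each).

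Endothelial markers fell in part. Of 10 detected, 5 fell, 0 rose and 5 did not pass by limma, beside 19.8% lower and 16.8% higher over all features. At an unadjusted p of 0.05 and by exact permutation 0 rose, and Erg was below the limit. Cdh5, the endothelial cadherin, read 6.70, 6.75, 6.53 and 6.20 in the mutants, against 8.09, 8.13 and 7.59 in wild type (difference -1.39, SE 0.16, limma adjusted p = 0.000332). Sums of the list were 2918 to 3467 in the mutants and 3435 to 4108 in wild type, so mutant replicate 1 and wild-type replicate 3 overlapped. Of 7 detected pericyte markers Pdgfrb and Notch3 fell and 5 did not pass, beside 19.8% lower over all features. The pericyte sum was 4458 to 6215 in the mutants and 3422 to 5698 in wild type. Acta2, a smooth muscle actin gene not specific to pericytes, made up 87.8% to 90.6% of that sum in the mutants and 65.1% to 83.5% in wild type. Without Acta2, left out after its values were seen, the sums were 533 to 583 in the mutants and 900 to 1195 in wild type, with no overlap. The median difference of all 7 pericyte markers was -0.06. The part of vessel cells in the differences of Lamb2, Lamc1 and the collagen IV genes was not tested. Muscle markers had 1 of 9 higher (Des), beside 16.8% higher over all features. Their sums were 9327 to 15295 in the mutants and 3272 to 10766 in wild type. Wild-type replicate 2 stood apart in that list, at 3272 against 9546 and 10766, and in Des, at 6.76 against 7.54 and 7.76. Des differed by 0.75 over all arrays and by 0.45 without wild-type replicate 2 (limma adjusted p = 0.0883), and its call was also lost without wild-type replicate 1 or mutant replicate 2 or 3. Glia markers had 2 of 3 detected higher (Dhh and Gfra3), beside 16.8% higher over all features, and Foxd3, S100b and Cdh19 were below the limit. Sums of the glia list were 457 to 541 in the mutants and 406 to 437 in wild type. Leukocyte markers had 0 of 3 called by limma, beside 36.6% over all features, 0 at an unadjusted p of 0.05 and 0 by exact permutation. Sums of the leukocyte list were 363 to 388 in the mutants and 330 to 375 in wild type, with Ptprc below the limit. With median centring of the intensities no called marker changed direction, but Esrp1 (0.054), Des (0.50), Dhh (0.14) and Gfra3 (0.42) were no longer called.

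**Figure D5:**
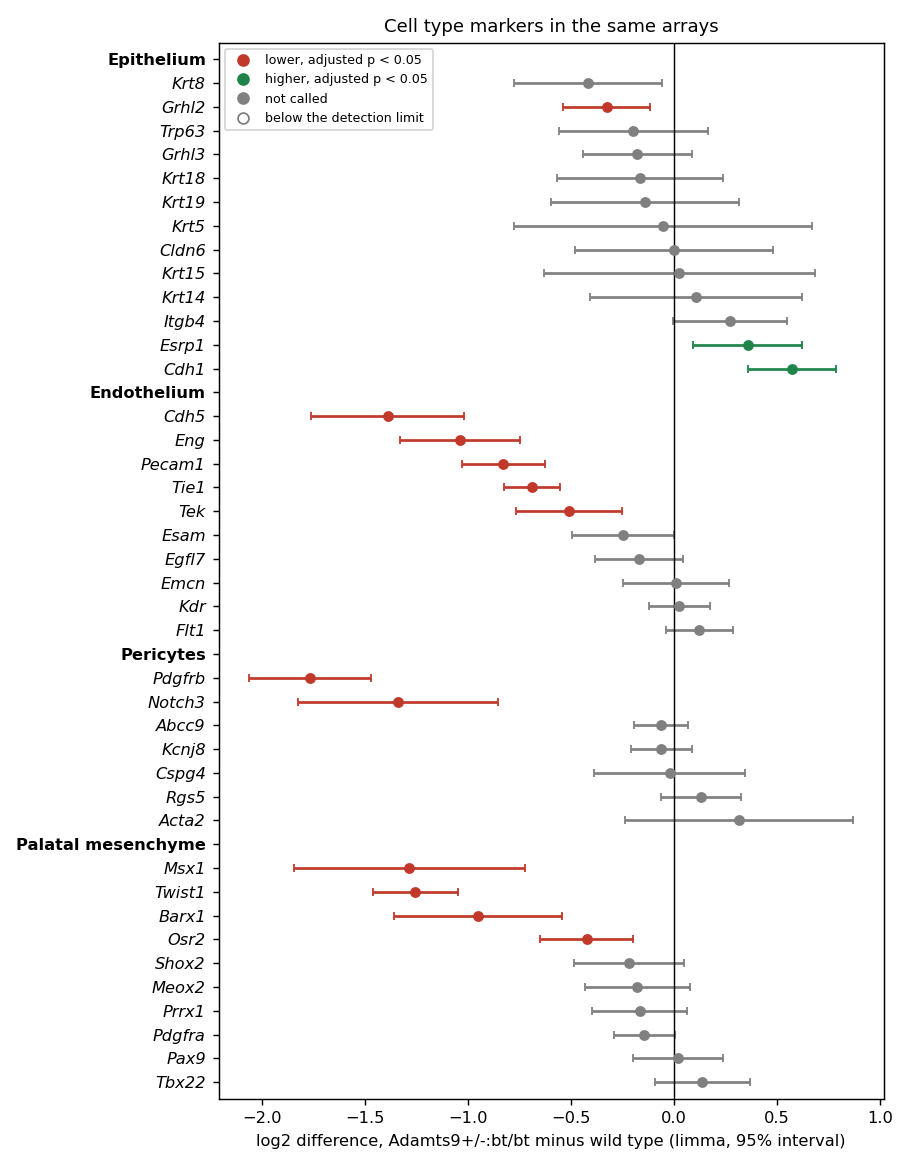
Log2 difference, Adamts9+/-:bt/bt minus wild type, with its 95% limma interval (horizontal axis) for detected markers of epithelium, endothelium, pericytes and palatal mesenchyme (vertical axis), coloured by the call. Epithelial markers lie on both sides of 0, while each called marker of the other 3 lists lies left of 0.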

How the data were processed

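Total RNA of palatal shelves from 7 embryos was amplified to biotin-labelled cRNA with an Illumina kit, per the labels' protocols. The per-sample files hold linear intensity, deposited without normalization between arrays. The authors' value table holds log2 values as deposited. Its ranks within an array equal those of the intensity, and its sorted distinct values coincide between arrays to within 0.001, so it was normalized between arrays. The method, background treatment and genome build are not given in the labels or files used here. Because many genes repeat 1 value over several probe IDs, the 25695 probe IDs were reduced to 18116 distinct features. Symbols came from the platform annotation (23976 probe IDs with 1 symbol, 0 with several, 1719 with none).

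The log2 table was tested with limma 3.58.1 in R 4.3.3 (two-sided moderated test of mutant against wild type by lmFit and eBayes, without covariates). P-values were adjusted by Benjamini-Hochberg over the 10869 features above the 40th percentile and a threshold of 0.05. The fit was also run on simulated data, and the outcome of that run is not used here. Single genes also got an exact permutation test over arrays. A gene with several features was read by its brightest. The series describes the samples as separate embryos. Alternatives were normexp (offset 50) with quantile normalization of the intensities, median centring, 2 other filters, each array left out, wild-type replicate 3 alone, a replicate block and every probe ID as a row. Named genes were all members, up to 6 called genes per list by smallest p, and the 3 nearest profiles of the 3 members with the smallest p. Members named outside this rule (Hspg2, Agrn, the integrin genes that did not pass, Lamc3, Krt5, Krt14 and Acta2) were chosen after their values were seen. The members and lists were chosen with earlier results of these data known.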

Additional observations from a re-analysis of the deposited data

Results flagged for a closer look

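Among 22 sets of 4 mutant values examined (laminin chains, named partners, receptors and enzymes, and beta chain differences), 2 had 1 array far from the others, and chance gives this in about 1 in 20 sets. For Mcam, mutant replicate 4 read 7.66 and the other mutant arrays 7.46 to 7.48, a gap of 0.896 of the whole range, above Dixon's critical value. All 4 still lay below the wild-type values. For Pomgnt1, mutant replicate 2 read 6.84 and the others 6.61 to 6.64, a gap of 0.846 of the range.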

How the results depend on the processing

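The 3 laminin calls held under each of the 14 alternatives, except that Lamc1 was lost against wild-type replicate 3 alone (-0.24, adjusted p = 0.241 by limma), a fit whose spread comes from the mutant arrays alone. Not all alternatives were separate checks. The 2 other filters and the probe ID rows left the differences of Lamb2, Lamb3 and Lamc1 unchanged. The replicate block repeated the differences without mutant replicate 4. Normexp with quantile normalization keeps the ranks that the deposited values share with the intensities. Without 1 array at a time the laminin count stayed at 3. Over the alternatives Lamb2 ran from -1.25 to -0.72 and Lamb3 from -1.24 to -0.73. Lamb1 changed sign with median centring (-0.054), without wild-type replicate 3 (-0.034) and without mutant replicate 1 (-0.015), was at most 0.064 without 1 array, was never called, and the 60th percentile filter removed it. Median centring shifted the median of all features by -0.14, and relative to it Lamb2 differed by -1.11, Lamb3 by -1.099, Lamc1 by -0.62 and Lamb1 by 0.08. The split of all calls became 826 higher and 3931 lower, against 1829 and 2148 in the values reported.

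Counts over all features were 1761 with wild-type replicate 3 alone and 6306 with every probe ID as a row, against 3977, and 2924 to 4339 without 1 array at a time. Partner counts were 4 with wild-type replicate 3 alone and 5 to 10 without 1 array. Receptors were 0 higher and 4 lower with median centring. Receptor counts were 0 and 1 with wild-type replicate 3 alone and with the block, and 2 to 4 without 1 array. The third list gave 0 and 1 under the same settings, and 1 to 3 without 1 array. Group differences without 1 array were -1.07 to -0.92 for Lamb2 minus Lamb1, -1.17 to -0.90 for Lamb3 minus Lamb1 and -0.067 to 0.18 for Lamb2 minus Lamb3, and the last was -0.0095 with median centring. With 6 arrays these exact permutation tests cannot go below 0.0667. With wild-type replicate 3 alone, Lamb2 minus Lamb1 was -0.84. The cause of these changes was not tested.

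Groups share replicate numbers 1 to 3 by name only: same-numbered arrays had deviations correlated at -0.20, -0.16 and 0.06. With the replicate block Lamb2 differed by -0.97, Lamb3 by -1.09 and Lamc1 by -0.43, each called, and 2840 features passed. Mutant replicate 4 has no wild-type array of its number, so these differences equal those without mutant replicate 4. Genes at the detection limit, such as Lama4 and Lamc3, leave little room for a fall to be seen. Lamb1 leaves less room above the limit than the falls of Lamb2 and Lamb3.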
